A study of Homo sapiens with 8 samples.

Results

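The 10 genes described here belong to the activin and transforming growth factor beta (TGF-beta) system and were followed across the 4 cell lines of a breast cancer progression series. The set was a list of gene symbols, and all 10 of them were found among the 56632 genes of the expression table: the activin subunits INHBA and INHBB, their secreted inhibitors FST and FSTL3, the ligands TGFB1, TGFB2 and TGFB3, the receptors TGFBR1 and TGFBR2, and the matrix protein gene TGFBI. The list names no threshold, but it was drawn up with earlier results on these same libraries known, so the adjusted p-values below describe these libraries and are not independent evidence. M1 is MCF10A, a spontaneously immortalised human mammary epithelial line that does not form tumours. M2 is MCF10AT1k.cl2, made by putting activated T24-HRAS into MCF10A and selecting through a xenograft. The carcinoma lines M3 (MCF10Ca1h) and M4 (MCF10CA1a.cl1) go back to tumours that M2 formed in host animals, so M2, M3 and M4 all descend from HRAS-transfected cells. Each line was grown for 8 days as acini in Matrigel with 2% horse serum, insulin, hydrocortisone and cholera toxin, and poly A+ RNA from 2 replicates per line was sequenced. M1 and M2 received EGF at 10 ng/ml, which M3 and M4 did not, so line and EGF cannot be told apart when M3 or M4 is compared with M1 or M2. M2 against M1 and M4 against M3 were each compared in a single medium.

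Activins are dimers of inhibin beta subunits, and TGF-betas are dimers of their own chains that are secreted in a latent form. Both bind a type II receptor kinase that recruits a type I receptor, which phosphorylates SMAD2 and SMAD3, and these enter the nucleus with SMAD4. In breast epithelium TGF-beta is known as a brake on proliferation that carcinoma cells can escape, and follistatin proteins neutralise activin outside the cell.

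INHBA, which encodes the subunit of activin A, was higher in every line after M1 and was 68.9-fold higher in M4 than in M1. INHBB, which encodes the subunit of activin B, had 64 and 222 counts in the M1 libraries and none in either M4 library. FST, the gene of follistatin, rose with INHBA in M4, while all 3 TGF-beta ligand genes fell in M4, TGFB1 with a log2 fold change of -2.05 from M1. TGFBR2 fell from M3 to M4, and TGFBR1 and TGFBI did not pass the call threshold in any comparison. These statements use the labels of the deposited libraries. If the labels of a single M1 and a single M2 library, on which the sources differ, are exchanged, the calls of TGFB2 and TGFB3 and 4 of the 6 calls of INHBA are lost. Fewer of all genes are called then too, 8.46% beside 20.7% in M4 against M1.

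The start regions of 4 of the called genes are shown because their base composition differs widely. They are RefSeq promoters in build GRCh38.p14, from 250 bases before to 50 after the annotated start, printed 5′ to 3′ on the gene's strand. INHBA lies on the minus strand at chr7:41703041-41703340, INHBB on the plus strand at chr2:120345886-120346185, FST on the plus strand at chr5:53480379-53480678, and TGFB1 on the minus strand at chr19:41353873-41354172. Capitals mark matches, on either strand, to an AP-1 site (TGANTCA), a cAMP response element (TGACGTCA), a SMAD box (CAGAC) or a TATA box (TATAAA), and no match shown overlaps another.
INHBA: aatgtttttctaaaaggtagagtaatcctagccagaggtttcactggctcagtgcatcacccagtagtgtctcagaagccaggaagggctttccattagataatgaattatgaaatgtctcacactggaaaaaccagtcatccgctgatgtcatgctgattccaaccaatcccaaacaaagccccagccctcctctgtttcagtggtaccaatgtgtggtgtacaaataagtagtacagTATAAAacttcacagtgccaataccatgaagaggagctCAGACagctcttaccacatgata
INHBB: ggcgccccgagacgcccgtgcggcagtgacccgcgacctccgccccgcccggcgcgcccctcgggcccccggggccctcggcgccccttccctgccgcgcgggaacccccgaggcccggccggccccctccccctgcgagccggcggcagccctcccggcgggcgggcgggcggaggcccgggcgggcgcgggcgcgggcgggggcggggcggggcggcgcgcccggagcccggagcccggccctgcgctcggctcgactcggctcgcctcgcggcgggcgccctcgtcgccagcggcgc
FST: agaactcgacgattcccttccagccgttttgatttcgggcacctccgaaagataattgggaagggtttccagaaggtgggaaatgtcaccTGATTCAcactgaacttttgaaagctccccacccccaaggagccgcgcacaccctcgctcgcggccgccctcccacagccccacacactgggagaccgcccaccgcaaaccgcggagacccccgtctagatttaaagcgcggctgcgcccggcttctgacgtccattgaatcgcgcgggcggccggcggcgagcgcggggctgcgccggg
TGFB1: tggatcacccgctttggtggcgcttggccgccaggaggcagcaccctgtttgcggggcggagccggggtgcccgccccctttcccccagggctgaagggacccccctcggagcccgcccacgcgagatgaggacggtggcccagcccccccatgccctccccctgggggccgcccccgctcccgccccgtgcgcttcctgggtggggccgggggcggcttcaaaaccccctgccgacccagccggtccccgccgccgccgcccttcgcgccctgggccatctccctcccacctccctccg

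The INHBA start region had 43.3% G and C and 1 CpG, against a median of 58.7% and 14 CpG over 35116 RefSeq promoters, and it held 1 TATA box and 1 SMAD box. The INHBB start region had 88.7% G and C and 58 CpG, and none of the 4 motifs. The FST region had 63.7% G and C, 32 CpG and 1 AP-1 match, and the TGFB1 region had 77.3% G and C, 28 CpG and no match. The paralogous subunit genes INHBA and INHBB thus had start regions on opposite sides of the median composition. FST, which rose with INHBA in M4, lay above the median, as did INHBB and TGFB1, which fell. The start regions of TGFB2 (51.7%) and TGFB3 (56.0% and 50.3%), which also fell, lay below it. Those of TGFBR2, which fell from M3 to M4, lay on both sides (42.3% and 61.7%). A link between composition and direction of change was not tested. Of the 35116 promoters, 45.3% held the SMAD box, 11.5% the TATA box, 7.71% the AP-1 site and 1.85% the cAMP response element. All 10 genes had a RefSeq entry, with 19 promoters among them, of which 7 held a SMAD box and 2 an AP-1 site. Several of these promoters belong to TGFBR1 and some overlap each other, so they are not independent. By gene, the SMAD box occurred in INHBA, TGFB2, TGFB3 and TGFBR1, and the AP-1 site in FST and TGFBR2. These matches are short letter strings and are given as a description.

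The authors' expected counts per gene were divided by library size, adjusted with edgeR's TMM factors, to give CPM values. Library totals ran from 69669970 to 107350344 counts. The typical coefficient of variation between replicates was 0.375 for M1, 0.314 for M3, 0.272 for M4 and 0.058 for M2, and the M2 replicates still differed beyond sampling noise (chi-square per degree of freedom 6.95). M2 values below therefore look tighter than those of the other lines. In the values the study published, compared over 265 genes, 6 of 8 columns best matched the library their label names. The columns of M1 replicate 2 and M2 replicate 1 best matched each other's (r of the best matches from 0.968 to 0.981 over the 8 columns). An exchange would place the M2 replicates, the closest pair within a line (Spearman rho 0.998), in different lines. With these labels exchanged, 11 of the 22 calls described below were kept, and with both libraries left out 15 were kept. The exchange also lowered the share of all genes called, in M4 against M1 from 20.7% to 8.46%. The calls that the exchange ended are named with the genes. HRAS ranged from 138.7 to 159.8 CPM over the M1 and M2 libraries and from 269.3 to 352.4 CPM over the M3 and M4 libraries. All 10 mammary epithelial markers were detected in every line, and 5 fibroblast markers summed to at most 0.619 CPM. The 3 endothelial markers summed to between 2.61 and 3.12 CPM in M1 and between 1.19 and 1.76 CPM in M3, against at most 0.206 CPM in M2 and 0.379 CPM in M4. KDR reached 3.04 CPM, while VWF was at most 0.229 CPM and CDH5 at most 0.0969 CPM in any library. The 4 immune markers summed to between 39.0 and 51.4 CPM in M4 and between 4.53 and 25.1 CPM in the other lines. In M4 nearly all of this was CD68, with PTPRC at most at 0.0366 CPM and CD3E at 0 in every library. The part of CD68 in the M4 results and of KDR in those of M1 and M3 was not tested. In bulk RNA, fewer cells that express a gene and less RNA per cell cannot be told apart.

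**Figure D1:**
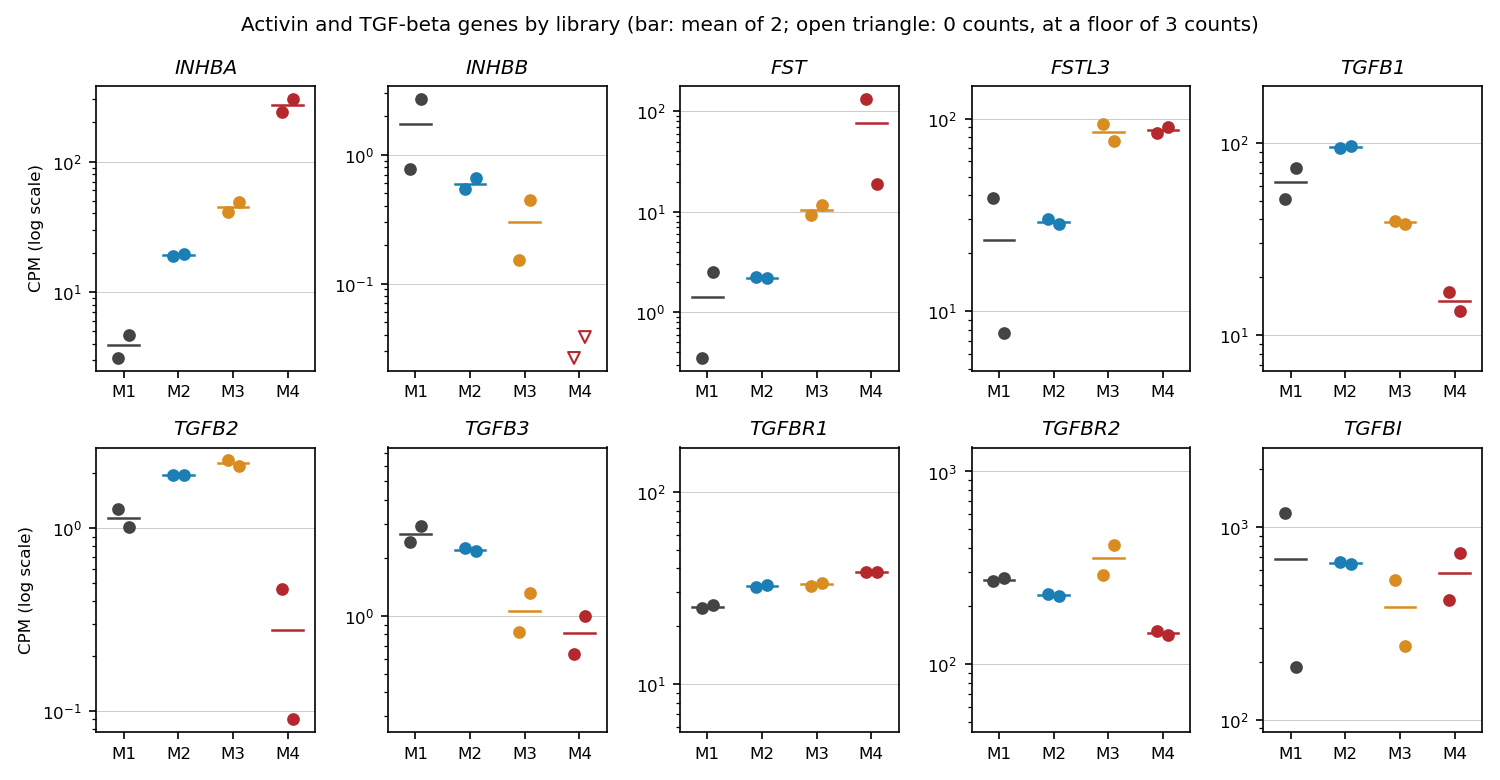
Expression of the 10 genes in each of the 8 libraries, in CPM on a log axis that differs between panels, with points for the 2 replicates of M1 to M4, bars for their mean and open triangles for libraries with 0 counts drawn at the level of 3 counts. INHBA sits between 237.7 and 301.5 CPM in M4 and between 3.13 and 4.70 CPM in M1, and TGFB1 sits between 13.4 and 16.8 CPM in M4, below every other library.

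Calls required an adjusted p under 0.05 over the 18431 genes tested and a log2 fold change beyond 1 in either direction, and all 10 genes passed the filter on low counts. In M2 against M1, 1 of the 10 was called beside 3.37% of all genes, and it was higher (2.26% of all genes higher, 1.11% lower). In M3 against M1, 2 were called beside 13.5%, with 1 higher beside 8.02% and 1 lower beside 5.51%. In M4 against M1, 6 were called beside 20.7%, with 2 higher beside 9.48% and 4 lower beside 11.2%. In M3 against M2, 2 were called beside 4.15%, with 1 higher beside 2.95% and 1 lower beside 1.2%. In M4 against M2, 6 were called beside 13.9%, with 2 higher beside 6.98% and 4 lower beside 6.94%. In M4 against M3, 5 were called beside 10.3%, with 1 higher beside 3.99% and 4 lower beside 6.3%. Replicate ranges that do not overlap are common with 2 libraries a line, and are read here only against that background. They were found for 7 of the 10 in M2 against M1 (61% of all genes), 9 in M3 against M1 (59.4%), 9 in M4 against M1 (67.3%), 9 in M3 against M2 (59%), 9 in M4 against M2 (73%) and 7 in M4 against M3 (60.2%). With the labels exchanged the M1 and M2 ranges stayed apart for 2 of the 10, FSTL3 and TGFBI. The share of all genes under that exchange is not given here, so this count is not read as particular to the set. The 6 calls in M4 against M1 were 2 higher (INHBA and FST) and 4 lower (INHBB, TGFB1, TGFB2 and TGFB3). The median absolute log2 fold change of the 10 genes in M4 against M1 was 1.95, and that of all genes tested was 0.62. The 6 comparisons share libraries and are not independent of each other. Of the 22 calls, 10 were kept when each of the 8 libraries was left out in turn. An omission leaves 1 library in its line, which then adds nothing to the estimate of spread. Calls kept or gained under omission therefore do not measure agreement between the replicates of that line.

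**Figure D2:**
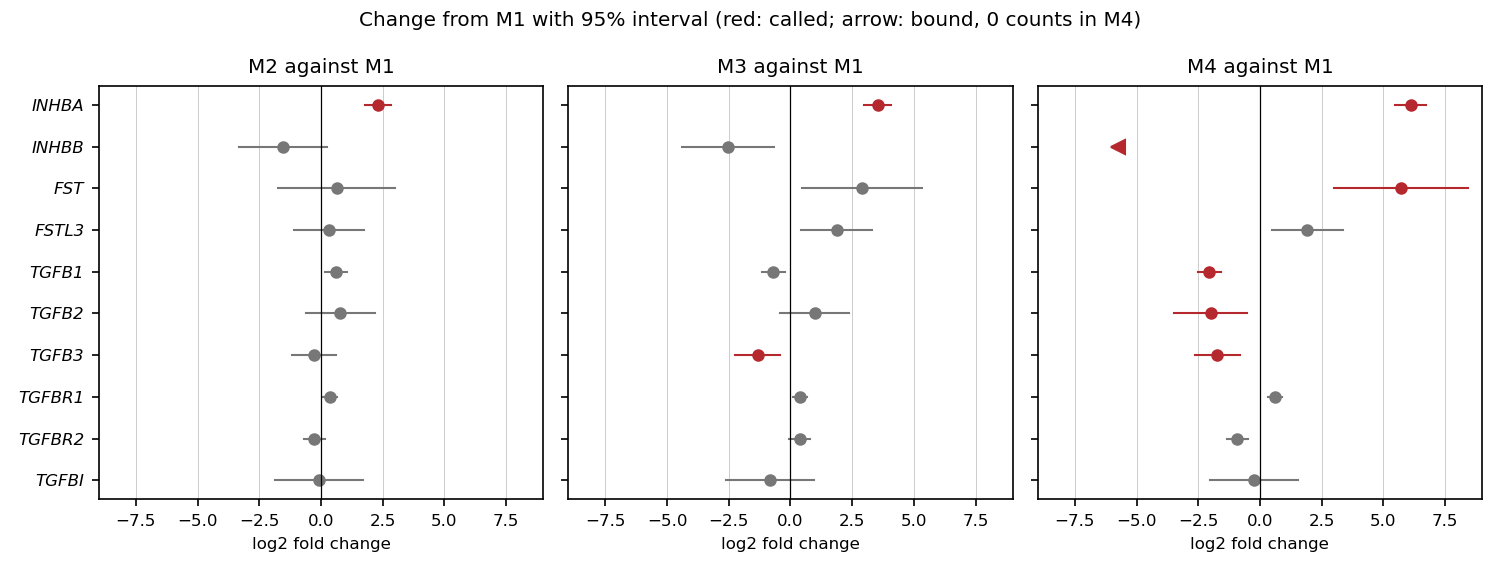
Log2 fold change of the 10 genes in M2, M3 and M4, each against M1, with points for the estimate, lines for the 95% interval, red for called genes and an arrow for INHBB in M4, drawn at its bound because M4 had 0 counts. INHBA is red in all 3 panels at 2.30, 3.53 and 6.11, and the wide intervals of FST, INHBB and TGFBI go with M1 replicates that lie far apart.

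INHBA (ENSG00000122641) spans chr7:41706766-41745432 on the minus strand in GRCh37, the build of the authors' counts, and its canonical transcript has 3 exons. It measured 3.13 and 4.70 CPM in the M1 libraries, 19.01 and 19.46 CPM in M2, 41.0 and 49.3 CPM in M3, and 237.7 and 301.5 CPM in M4. The 4 lines were ordered M1, M2, M3, M4 with no overlap between any of them. The log2 fold change from M1 was 2.30 (SE 0.23, adjusted p = 0.00605) in M2. It was 3.53 (SE 0.24, adjusted p = 0.000329) in M3 and 6.11 (SE 0.27, adjusted p = 9.62e-05) in M4. Each later line also differed from the one before it, M3 from M2 by 1.23 (SE 0.22, adjusted p = 0.0193) and M4 from M3 by 2.58 (SE 0.22, adjusted p = 0.00149). The step from M3 to M4, made with both lines without EGF, was 5.97-fold. The values in M4 against M1 ranged from 5.86 to 6.43 as single libraries were left out, all called. The call in M2 against M1 was lost without M2 replicate 1 (adjusted p = 0.0751), without M2 replicate 2 (adjusted p = 0.0651) and with the labels exchanged, where the log2 fold change was 0.12. The call in M3 against M2 was lost without M2 replicate 1 (adjusted p = 0.192), M2 replicate 2 (0.182) or M3 replicate 2 (0.0737), with the labels exchanged (0.301) and with both of those libraries left out (0.0931).

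Exchange of the labels also left INHBA uncalled in M3 against M1 (adjusted p = 0.264) and in M4 against M3 (adjusted p = 0.128), whereas M4 against M1 and M4 against M2 stayed called under every alternative run. The exchange brought the M4 mean from 68.9-fold to 24.3-fold that of M1, or 4.60 on the log2 scale (adjusted p = 0.0272), and the log2 fold change against M2 to 4.48. The M1 and M2 ranges then overlapped. An antisense gene, INHBA-AS1, shares 248 exon bases with INHBA on the opposite strand, and whether the counting used strand is not given in the sources used here. INHBA-AS1 had 5 and 4 counts in the M4 libraries, 1 in M3 replicate 1 and 0 in the other 5.

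INHBB (ENSG00000163083), with 2 exons at chr2:121103712-121109379 on the plus strand, was a low-count gene in every library. The M1 libraries measured 0.774 and 2.71 CPM, the M2 libraries 0.540 and 0.654 CPM from 55 and 46 counts, the M3 libraries 0.152 and 0.448 CPM from 12 and 39 counts, and both M4 libraries 0. No M1 library overlapped those of M2 or M3, but the M1 replicates differed 3.501-fold. In M4 a count of 0 allows up to 0.0264 CPM in replicate 1 and 0.0384 CPM in replicate 2, which are 3 counts in each library, for counting error only. Against that floor INHBB was at least 53.7-fold lower in M4 than in M1 (adjusted p = 0.00299). It was at least 18.4-fold lower than in M2 (adjusted p = 0.00851) and at least 9.24-fold lower than in M3 (adjusted p = 0.0194). With M1 replicate 2 omitted the bound against M1 was 23.9, with M1 replicate 1 omitted it was 83.5, and that against M3 was 4.67 without M3 replicate 2. With the labels exchanged the bounds were 20.2 against M1 and 51.8 against M2, both still called. The call against M1 held in all 8 omissions, that against M2 was lost without M4 replicate 1, and that against M3 was lost without M3 replicate 2 or either M4 library. The values for M3 against M1 (log2 fold change -2.53, SE 0.78, adjusted p = 0.0622) and M2 against M1 (-1.54, SE 0.75, adjusted p = 0.274) did not pass the test. Over the omissions they ran from -3.50 to -1.35 and from -2.18 to -0.37.

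Divided by transcript length, so that the subunit genes can be compared, INHBA made up 68.2% and 47.9% of the beta subunit transcripts INHBA plus INHBB in the M1 libraries. Its share was 94.9% and 94.0% in M2 and 99.3% and 98.3% in M3. In M4 it was the whole, since INHBB was at 0. With the transcript lengths used, the M1 libraries thus held both subunits at like levels, and the shares of the later lines did not overlap those of M1. With the labels exchanged, M1 would hold 68.2% and 94.9% and M2 47.9% and 94.0%, which overlap, while M3 and M4 stay above both. INHBC and INHBE, the remaining beta subunit genes, did not pass the filter on low counts.

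FST (ENSG00000134363), on the plus strand at chr5:52776456-52782964 with 6 exons, encodes follistatin, which binds activin almost irreversibly. It measured 0.351 and 2.50 CPM in M1, 2.24 and 2.18 CPM in M2, 9.36 and 11.6 CPM in M3, and 132.9 and 18.7 CPM in M4. Both M4 libraries lay above all others, both M3 libraries lay above M1 and M2, and M1 and M2 overlapped. The replicates differed 7.13-fold in M1 and 7.10-fold in M4. The log2 fold change was 5.73 (SE 1.16, adjusted p = 0.0103) in M4 against M1 and 5.10 (SE 1.12, adjusted p = 0.0189) in M4 against M2. In M4 against M1 the value was 3.72 without M4 replicate 1 and 7.75 without M1 replicate 2, called in both cases, but it was not called when the M1 and M4 libraries alone were fitted. In M4 against M2 the call was lost without M4 replicate 1, where the value was 3.09, without either M2 library and with both libraries of uncertain label left out (adjusted p = 0.0997). M4 against M3 gave 2.85 (SE 1.00, adjusted p = 0.0927) and M3 against M1 gave 2.88 (SE 1.04, adjusted p = 0.089), neither of which passed the test. Single libraries decided these values. M4 against M3 was 0.84 without M4 replicate 1 and 3.68 without M4 replicate 2. For M3 against M1, omission of M1 replicate 1 gave 2.07 and omission of M1 replicate 2 gave 4.90.

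FSTL3 (ENSG00000070404), at chr19:676392-683392 on the plus strand with 5 exons, encodes a follistatin-like glycoprotein that also binds activin. It measured 38.9 and 7.70 CPM in M1, 30.03 and 28.37 CPM in M2, 93.9 and 76.8 CPM in M3, and 84.6 and 91.0 CPM in M4. All 4 libraries of M3 and M4 lay above all 4 of M1 and M2, and the M1 replicates differed 5.06-fold. The log2 fold change from M1 was 1.91 in M4 (SE 0.62, adjusted p = 0.0518) and 1.87 in M3 (SE 0.62, adjusted p = 0.0694), neither called. With 1 M1 library left out, M1 had no replicate spread of its own, and the values depended on the library that stayed. In M4 the value was 3.53 with replicate 1 omitted and 1.17 with replicate 2 omitted, and in M3 it was 3.47 and 1.14. DESeq2 called both on all libraries (adjusted p = 0.0017 in M4 and 0.00345 in M3). M4 and M3 differed by 0.04 on the log2 scale, with a 95% interval from -1.35 to 1.44. Against M2 the edgeR values were 1.59 in M4 (adjusted p = 0.104) and 1.55 in M3 (adjusted p = 0.193), neither called. With the labels exchanged M4 against M2 was called, at 2.28 (adjusted p = 0.0338), while M4 against M1 was 1.35 (adjusted p = 0.141).

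Set against INHBA per length, FSTL3 was above INHBA in every library of M1, M2 and M3 and below it in both of M4. The ratio of FSTL3 to INHBA was 30.1 and 3.96 for the M1 libraries, 3.82 and 3.53 for M2, 5.54 and 3.77 for M3, and 0.861 and 0.729 for M4. The M4 ratios did not overlap those of any other line, and the M1 replicates were the most spread. The ratio of FST to INHBA showed no such order, at 0.295 and 1.40 for M1, 0.310 and 0.294 for M2, 0.601 and 0.621 for M3, and 1.47 and 0.163 for M4. The highest and the lowest FST ratio of all 8 libraries were thus both M4 libraries.

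**Figure D3:**
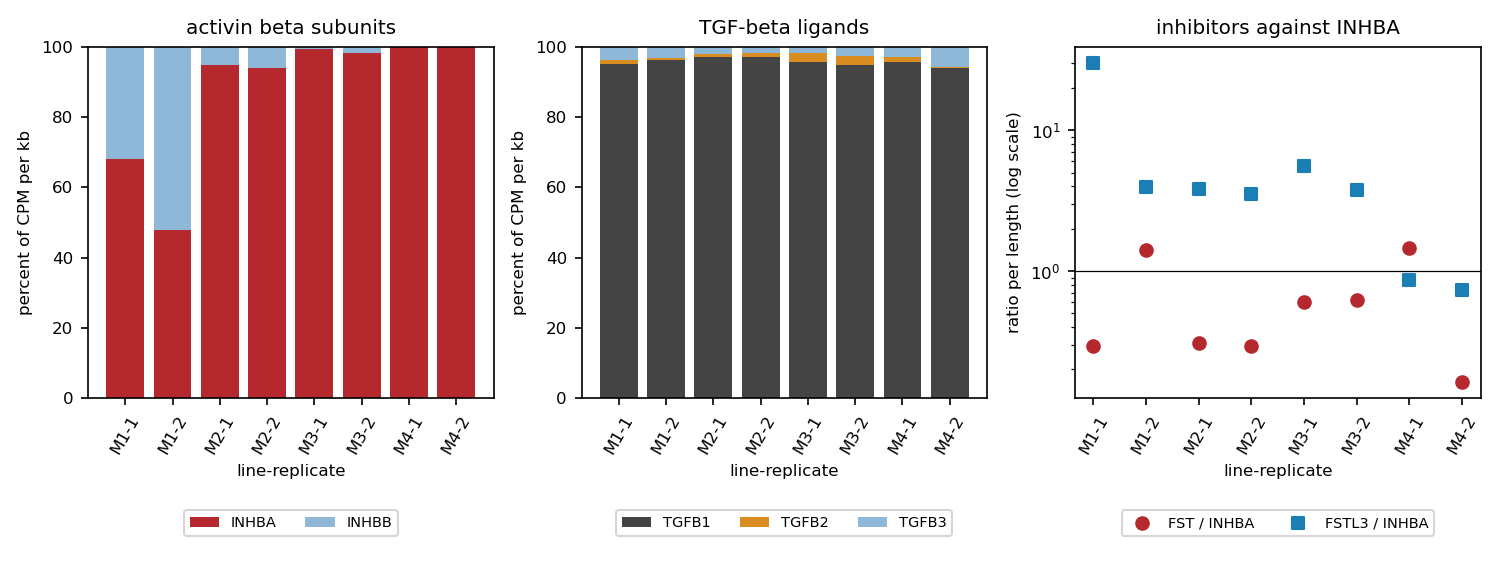
Composition per library, with the share of INHBA and INHBB among activin beta subunit transcripts (left) and of TGFB1, TGFB2 and TGFB3 among TGF-beta ligand transcripts (middle), both in percent of CPM per kilobase of transcript, and the ratio of each inhibitor gene to INHBA per length on a log axis (right), where the line marks equal levels. INHBA goes from 68.2% and 47.9% in M1 to 100% in M4, TGFB1 stays between 94.0% and 97.3%, and FSTL3 falls below INHBA in the M4 libraries.

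TGFB1 (ENSG00000105329), with 7 exons at chr19:41807492-41859827 on the minus strand, encodes the most widely expressed TGF-beta. It measured 50.9 and 74.2 CPM in M1, 94.2 and 96.0 CPM in M2, 39.2 and 38.1 CPM in M3, and 16.8 and 13.4 CPM in M4. The order was M2, M1, M3, M4 with no overlap between lines, but M1 and M2 overlap with the labels exchanged. The gene fell to its lowest level in M4, by log2 fold changes of -2.05 (SE 0.21, adjusted p = 0.000566) against M1, -2.65 (SE 0.21, adjusted p = 0.000494) against M2 and -1.35 (SE 0.20, adjusted p = 0.00692) against M3. These 3 calls held under every alternative and omission run. M3 against M2 gave -1.30 (SE 0.20, adjusted p = 0.0129), a call that was lost without any 1 of the M2 or M3 libraries and with the labels exchanged (adjusted p = 0.13). The value of M3 against M1 was -0.69 (SE 0.20, adjusted p = 0.0429), under the fold threshold, and that of M2 against M1 was 0.60 (SE 0.20, adjusted p = 0.123). The neighbouring gene HNRNPUL1 shares 215 exon bases with TGFB1 on the opposite strand and had 18254 to 45226 counts per library, against 1049 to 9587 for TGFB1, so without strand some reads of the shared bases could belong to either.

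TGFB2 (ENSG00000092969), at chr1:218518678-218617961 on the plus strand with 7 exons, measured 1.27 and 1.01 CPM in M1, 1.96 CPM in both M2 libraries, 2.35 and 2.19 CPM in M3, and 0.467 and 0.0897 CPM in M4. Both M4 libraries, with 53 and 7 counts, lay below all others and differed 5.21-fold from each other. The falls to M4 were called, at -2.99 on the log2 scale against M3 (SE 0.65, adjusted p = 0.0221) and -2.78 against M2 (SE 0.65, adjusted p = 0.0211). Against M1 the value was -2.00 (SE 0.64, adjusted p = 0.0472), a call kept in only 1 of 8 omissions, with values from -3.64 without M4 replicate 1 to -1.26 without M4 replicate 2. Leaving out either M2 library ended the call against M2, and leaving out either M3 library ended that against M3. With the labels exchanged no fall of TGFB2 was called, at -3.00 against M3 (adjusted p = 0.0681), -2.39 against M2 (0.0796) and -2.51 against M1 (0.078). With both of those libraries left out the calls against M2 (0.0832) and M1 (0.122) were lost, and scaling by library totals (0.0563) or fitting the 2 lines alone (0.129) also ended the call against M1. Without M4 replicate 1 the values against M2 and M3 were -4.43 and -4.64, and without M4 replicate 2 they were -2.05 and -2.26. TGFB2-AS1, which shares 701 exon bases on the opposite strand, had 0 to 5 counts per library, including 4 in M4 replicate 2.

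TGFB3 (ENSG00000119699), at chr14:76424440-76449354 on the minus strand with 7 exons, measured 2.43 and 2.93 CPM in M1, 2.24 and 2.16 CPM in M2, 0.821 and 1.31 CPM in M3, and 0.635 and 0.999 CPM in M4. All libraries of M3 and M4, which overlapped each other, lay below all of M1 and M2. Against M1 it fell, with a log2 fold change of -1.72 in M4 (SE 0.40, adjusted p = 0.015) and -1.33 in M3 (SE 0.39, adjusted p = 0.0477). The call in M3 was lost in each of the 8 omissions, and that in M4 without M1 replicate 2 or M4 replicate 1. In M4 against M2 it fell by 1.43 (SE 0.40, adjusted p = 0.037), a call lost without any 1 of those 4 libraries. All 3 calls of TGFB3 were lost with the labels exchanged, at -1.52 in M4 against M1 (adjusted p = 0.0772), -1.13 in M3 against M1 (0.246) and -1.64 in M4 against M2 (0.0568). They were also lost with both of those libraries left out (0.113, 0.241 and 0.185), and that in M3 against M1 when the M1 and M3 libraries alone were fitted. TGFB3-AS1, with 163 shared exon bases, had 3 counts in M1 replicate 1 and 0 elsewhere.

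Per length, TGFB1 made up between 94.0% and 97.3% of the TGF-beta ligand transcripts in every library. The small shares differed between M3 and M4, with TGFB2 at 2.719% and 2.586% in M3 and 1.263% and 0.2973% in M4. TGFB3 made up 1.625% and 2.64% in M3 and 2.935% and 5.666% in M4. In M1, TGFB2 made up 1.125% and 0.6229% and TGFB3 3.684% and 3.08%, within the ranges of M4. The TGFB2 shares in M4 rest on 53 and 7 counts. TGFB1 thus stayed the main ligand transcript while all 3 were lower in M4 than in M1. The beta subunit mix, described above, ran instead from both subunits in M1 to INHBA alone in M4.

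TGFBR1 (ENSG00000106799), the type I receptor kinase, lies at chr9:101866320-101916474 on the plus strand with 9 exons. It measured 24.8 and 25.7 CPM in M1, 32.1 and 32.7 CPM in M2, 32.4 and 33.7 CPM in M3, and 38.3 and 38.5 CPM in M4. Its replicates were among the closest of the set. As labelled, M1 was the lowest line and M4 the highest, and M2 and M3 overlapped. The log2 fold change of M4 against M1 was 0.60 (SE 0.12, adjusted p = 0.00962), past the p threshold but under the fold threshold. The 5 other comparisons gave values between 0.03 and 0.39, all with an adjusted p above the threshold. With the labels exchanged M1 and M2 overlap, and M4 against M1 was 0.43 (adjusted p = 0.228).

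TGFBR2 (ENSG00000163513), the type II receptor kinase that binds TGF-beta ligands, lies at chr3:30648093-30735634 on the plus strand with 7 exons. It measured 268.7 and 279.2 CPM in M1, 230.0 and 225.2 CPM in M2, 290.7 and 416.1 CPM in M3, and 148.2 and 141.0 CPM in M4. The order was M3, M1, M2, M4, with no overlap between lines as labelled, and M1 and M2 overlap with the labels exchanged. It fell by 1.29 from M3 to M4 (SE 0.18, adjusted p = 0.00599), a call kept in all 8 omissions with values from -1.53 to -1.01. The value of M4 against M1 was -0.92 (SE 0.18, adjusted p = 0.00787) and that of M4 against M2 was -0.65 (SE 0.18, adjusted p = 0.037), both under the fold threshold. Per length, TGFBR2 stood above TGFBR1 in every library, by 15.5 and 15.6 times in M1, 10.3 and 9.87 times in M2, 12.9 and 17.7 times in M3, and 5.55 and 5.25 times in M4. The M4 ratio was the lowest and overlapped with no other line.

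TGFBI (ENSG00000120708), at chr5:135364677-135399507 on the plus strand with 17 exons, encodes a secreted matrix protein named for its induction by TGF-beta. It measured 1185 and 187.6 CPM in M1, 656.3 and 645.5 CPM in M2, 528.6 and 241.6 CPM in M3, and 420.0 and 736.5 CPM in M4. The M1 replicates, which differed 6.32-fold, were the highest and the lowest of all 8 libraries. No comparison was called, and the value of M4 against M1 was -0.25 with a 95% interval from -2.03 to 1.54. Without M1 replicate 1 that value was 1.64, and without M4 replicate 1 it was 0.11, so its direction rested on single libraries. With the labels exchanged the value was -0.67.

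Compared per length within a line, the order of the genes was not the same at the ends of the series. In M1 the mean level was 253.0 CPM per kilobase for TGFBI, 60.5 for TGFBR2, 22.5 for TGFB1, 9.32 for FSTL3 and 3.89 for TGFBR1. TGFB3 at 0.781, INHBA at 0.647, FST at 0.620, INHBB at 0.543 and TGFB2 at 0.194 CPM per kilobase followed, and TGFB3, INHBA, FST and INHBB overlapped between replicates. FSTL3 was 15.6 in M1 replicate 1 but 3.08 in replicate 2, where it was below TGFBR1 at 3.96, and FST at 0.152 in replicate 1 was below TGFB2 at 0.216, so these steps did not hold in both libraries. In M4, TGFBI at 213.2 was followed by INHBA at 44.6 (SD 7.47, n = 2), FSTL3 at 35.1 (SD 1.79), FST at 33.0 (SD 35.1) and TGFBR2 at 31.9 CPM per kilobase (SD 1.12). INHBA exceeded FSTL3 and TGFBR2 in both M4 libraries, whereas FST overlapped all 3. TGFBR1 at 5.91 and TGFB1 at 5.44 CPM per kilobase in M4 overlapped each other.

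The other genes of the pathway were taken from a list of 53, of which 46 passed the filter on low counts and 25 were called in at least 1 comparison. In M4 against M1, 17 of the 46 were called, 9 higher and 8 lower, which is 37% of them beside 20.7% of all genes. In M4 against M2 it was 19 (11 higher, 8 lower), or 41.3% beside 13.9%, and in M4 against M3 it was 9 (2 higher, 7 lower), or 19.6% beside 10.3%. The counts of the other comparisons were near the share of all genes. In M3 against M1, 6 were called, all higher, or 13% beside 13.5%. In M3 against M2 it was 3, all higher, or 6.52% beside 4.15%, and in M2 against M1 it was 1, lower, or 2.17% beside 3.37%. Without M4 replicate 1 the count in M4 against M1 was 11. Of the 15 genes of the list that were called in M4 against M1 and are named below, 10 kept their call in all 8 omissions and 11 kept it with the labels exchanged.

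Among 6 other ligands and secreted inhibitors tested in M4 against M1, 1 rose and 2 fell (50% called, beside the 20.7% of all genes). FSTL1, which encodes a secreted follistatin-like protein, measured 17.7 and 16.8 CPM in M1 and 49.8 and 32.2 CPM in M4, a log2 fold change of 1.25 (SE 0.32, adjusted p = 0.0213) that was not called without either M1 library or M4 replicate 1, or with the labels exchanged (adjusted p = 0.0784). DCN, whose product decorin binds TGF-beta in the matrix, went from 34.1 and 1.62 CPM in M1 to 0.167 and 0.0128 CPM in M4, where it had 19 and 1 counts. It fell by 7.45 on the log2 scale (SE 1.59, adjusted p = 0.0125), a change not called without either M4 library, and its value was -3.97 with M1 replicate 1 omitted and -10.28 with M4 replicate 1 omitted, and -8.88 with the labels exchanged. MSTN, the gene of myostatin, was near its detection limit, with 25 and 57 counts in M1 against 6 and 2 in M4, a log2 fold change of -3.58 (SE 0.87, adjusted p = 0.0181) whose call was lost without M1 replicate 2 or either M4 library and with the labels exchanged (adjusted p = 0.156).

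Among 7 other receptors and co-receptors tested, 1 rose and 1 fell in M4 against M1 (28.6% called). TGFBR3, or betaglycan, a co-receptor that presents TGF-beta2, measured 15.4 and 5.65 CPM in M1 and 1.65 and 0.922 CPM in M4. It fell by 3.03 (SE 0.52, adjusted p = 0.00474), called in all 8 omissions, with -2.11 without M1 replicate 1. ENG, or endoglin, another co-receptor, measured 17.2 CPM in both M1 libraries and 46.1 and 48.9 CPM in M4, and rose by 1.46 (SE 0.23, adjusted p = 0.00332). That call was kept in all 8 omissions but lost with the labels exchanged, at 1.04 (adjusted p = 0.13).

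Of 9 genes of latency and activation tested, 1 rose and 1 fell in M4 against M1, and this 22.2% is close to the 20.7% of all genes. THBS1, which encodes thrombospondin-1, an activator of latent TGF-beta, measured 75.7 and 146.3 CPM in M1 and 860.4 and 799.5 CPM in M4. It rose by 2.90 (SE 0.41, adjusted p = 0.00229) in M4, and measured 596.4 and 1242 CPM in M3. LTBP4, a latent TGF-beta binding protein, measured 43.4 and 76.0 CPM in M1 and 18.7 and 15.8 CPM in M4, and fell by 1.79 (SE 0.27, adjusted p = 0.00287). Neither call was lost in any of the 8 omissions.

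Of 13 SMADs and their regulators, 4 rose and 2 fell in M4 against M1 (46.2% called). SMAD3, which carries the signal of activin and TGF-beta receptors, measured 34.9 and 25.0 CPM in M1 and 82.3 and 92.8 CPM in M4, and rose by 1.55 (SE 0.18, adjusted p = 0.00112). SMURF2, a ubiquitin ligase for SMADs and receptors, measured 21.3 and 24.1 CPM in M1 and 63.3 and 60.1 CPM in M4 and rose by 1.44 (SE 0.14, adjusted p = 0.000453). PMEPA1, a SMAD target that restrains the pathway, measured 34.2 and 59.6 CPM in M1 and 139.2 and 214.8 CPM in M4 and rose by 1.92 (SE 0.34, adjusted p = 0.00564). These 3 calls were kept in all 8 omissions. SMAD6, an inhibitory SMAD, measured 5.75 and 2.04 CPM in M1 and 0.212 and 0.743 CPM in M4, a log2 fold change of -3.04 (SE 0.70, adjusted p = 0.0149) whose call was lost without M1 replicate 1 or M4 replicate 1 and with the labels exchanged (adjusted p = 0.0917), with values from -4.17 to -2.10 over the omissions.

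Of 11 induced targets tested, 2 rose and 2 fell in M4 against M1 (36.4% called), although all are known to be induced by TGF-beta in some cells. CCN2, a matricellular protein gene, measured 2.68 and 4.03 CPM in M1 and 32.5 and 11.3 CPM in M4 and rose by 2.70 (SE 0.49, adjusted p = 0.00575), or by 1.75 without M4 replicate 1. BHLHE40, a transcription repressor gene, measured 58.6 and 97.4 CPM in M1 and 275.0 and 217.1 CPM in M4, a rise of 1.66 (SE 0.35, adjusted p = 0.0109) lost without M4 replicate 1. CDKN1A, the gene of the cell cycle inhibitor p21, measured 310.6 and 228.2 CPM in M1 and 115.7 and 94.2 CPM in M4 and fell by 1.36 (SE 0.19, adjusted p = 0.00216). MMP2, a gelatinase gene, measured 4.83 and 23.6 CPM in M1 and 0.203 and 0.551 CPM in M4 and fell by 5.26 (SE 0.86, adjusted p = 0.00407), with values from -6.10 without M4 replicate 2 to -3.71 without M1 replicate 2 and -3.87 with the labels exchanged.

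**Figure D4:**
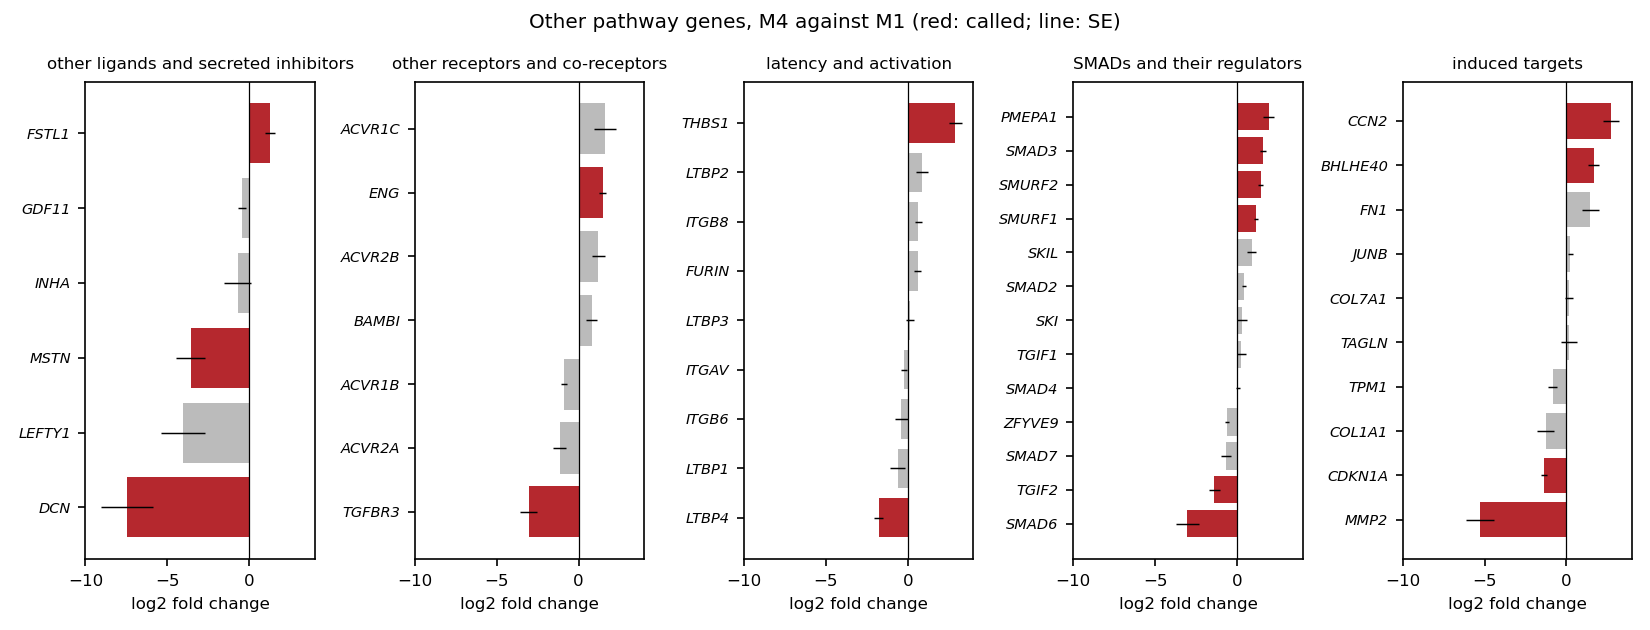
Log2 fold change of tested pathway genes in M4 against M1, grouped by role, with bars for the estimate, lines for its SE and red for called genes. Red bars point both ways within each role, 9 to the right and 8 to the left in all, from DCN at -7.45 to THBS1 at 2.90.

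The 3 genes of the set with the widest range between line means were INHBA, INHBB and FST, and their nearest patterns were sought among 13832 protein-coding genes by Pearson r of log2 CPM over the 8 libraries. INHBA was most like CYB5B (r = 0.9948), MISP (r = 0.9917) and EMB (r = 0.9900). INHBB was most like PLXDC2 (r = 0.9916), SDC3 (r = 0.9910) and ZNF629 (r = 0.9889). FST was most like PRSS16 (r = 0.9929), PLCXD2 (r = 0.9897) and MCOLN3 (r = 0.9893). The 8 points are 2 libraries of each of 4 lines, so r mostly reflects 4 line levels and is given as a description.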

How the data were processed

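RNA-seq of 8 libraries, 2 replicates of each of 4 cell lines, was analysed here from gene-level expected counts as deposited. The authors trimmed paired-end poly A+ reads with Trimmomatic, aligned them with STAR to GRCh37 (hg19) and estimated these expected counts with RSEM on GENCODE v19. The tool versions and whether the counting used strand are not given in the sources used here. The counts are not normalized, 12.8% of values are not whole, and they were rounded here.

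Lines and replicate numbers came from the sample titles. All 8 libraries were fitted together with a coefficient for each line (edgeR 4.0.16, R 4.3.3), after filterByExpr and TMM scaling. Differences were tested by the robust quasi-likelihood F test, and p-values were adjusted by the Benjamini-Hochberg method over 18431 genes. SEs are those implied by the F statistic. The p-values measure the spread between libraries of the same line, pooled over the 4 lines. The close M2 replicates therefore also enter the spread used in comparisons without M2. CPM used TMM-scaled library sizes, and levels per kilobase used canonical transcript lengths of GENCODE release 44 on GRCh37, to which 94.7% of genes with a count were matched. Because the counts were made on GENCODE v19, shares, ratios and orders between genes depend on these lengths, and other lengths were not tried. Promoters were RefSeq's, GRCh38.p14. The fit was run on simulated counts with the same spread in every line, so that run does not cover the unequal spread of these libraries.

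The 10 genes, the pathway list, the markers and the tests were chosen with earlier results of these data known. Named pathway genes are the called ones with the largest change in M4 against M1, at most 4 per role. The values of 1 gene of the pathway list, which stays in the counts, are not reported here. Alternatives were other scalings (relative log expression, library totals, upper quartile), DESeq2 1.42.0, other low count filters, a replicate block, a fit of the 2 lines alone, a 2-fold rule in both replicates, exchanged labels and omission of each library. Leaving out both exchanged libraries was added after seeing the data.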

Additional observations from a re-analysis of the deposited data

How the results depend on the processing

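Of 480 values of the 10 genes with 1 library left out, 417 kept their direction and side of the threshold, 41 lost and 14 gained a call, and 8 turned direction. Of 588 under the other settings, 529 did so, 22 lost and 26 gained a call, and 11 turned direction. Of 825 for the named pathway genes, 710 kept their call and 115 lost it. Over single omissions the number of the 10 genes called ran from 0 to 2 in M2 against M1, 1 to 3 in M3 against M1, 0 to 3 in M3 against M2, 3 to 7 in M4 against M2 and 3 to 6 in M4 against M3. The number of pathway genes ran from 0 to 2, 4 to 10, 0 to 5, 5 to 20 and 3 to 11 in the same comparisons and from 11 to 19 in M4 against M1.

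With M1 replicate 2 and M2 replicate 1 exchanged, 0 of the 10 genes were called in M2 against M1, M3 against M1 and M3 against M2, and 3 in M4 against M3, and the pathway counts were 0 in M2 against M1, 2 in M3 against M1, 12 in M4 against M2 and 4 in M4 against M3. Fewer of all genes were called too. Their share was 0% in M2 against M1 (3.37% as labelled), 1.19% in M3 against M1 (13.5%) and 1.16% in M3 against M2 (4.15%). It was 10.2% in M4 against M2 (13.9%) and 4.5% in M4 against M3 (10.3%). The exchange turned M2 against M1 to 1.36 for INHBB, -0.94 for FSTL3, -0.12 for TGFB2, 0.12 for TGFB3 and 0.02 for TGFBR2, and M4 against M2 to 0.47 for TGFBI. With both left out, FSTL3 in M2 against M1 was -0.45 and 11 pathway genes were called in M4 against M2. Without the low count filter, the 10 genes gave 5 calls in M3 against M1 and 4 in M3 against M2, and the pathway 9 in M2 against M1, 13 in M3 against M1 and 8 in M3 against M2. DESeq2 gave 4 of the 10 genes in M3 against M1, and 5 and 8 pathway genes in M2 against M1 and M3 against M2. The fit of 2 lines alone gave 1 in M3 against M1, 4 in M3 against M2 and 5 pathway genes in M3 against M2. The 2-fold rule gave 5 in M3 against M1, 4 in M3 against M2, and 6 pathway genes each in M2 against M1 and M3 against M2. Library totals gave 0 pathway genes in M2 against M1, and with at least 10 counts in every library, which drops INHBB, 3 of the 10 genes were called in M4 against M3. TGFBR1 in M3 against M2 was -0.04 with library totals and -0.03 with upper quartile scaling. Upper quartile scaling moved the median of all genes by -0.104 in M3 against M1 and -0.133 in M4 against M1, and library totals by 0.119 in M4 against M3. For values that turned under omission, the ranges were -0.18 to 2.65 for FST and -0.41 to 1.92 for FSTL3 in M2 against M1, -0.10 to 0.19 for FSTL3 in M4 against M3, and for TGFBI -0.86 to 1.79, -1.62 to 1.04 and -1.03 to 1.64 in M2, M3 and M4 against M1 and -0.61 to 0.18 in M4 against M2. The causes were not tested. Besides the main fit, the share of all genes called is given for the exchanged labels only. Counts of calls under single omissions and the other settings have no such background and are not read as particular to these genes.

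Same-numbered replicates showed little joint deviation (r from -0.024 to 0.122, the highest for M3 with M4). This cannot exclude that the numbers pair the libraries, because the M2 replicates differ little and 2 libraries have uncertain labels. A replicate block gave 1, 3, 7, 2, 6 and 5 calls of the 10 genes in M2, M3 and M4 against M1, M3 and M4 against M2 and M4 against M3, and turned TGFBI to 0.20 in M2 and 0.13 in M4 against M1.

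With 2 libraries a line, a large spread in M1, and counts of 64 or less in most libraries for INHBB and of 53 and 7 for TGFB2 in M4, small changes of these genes were not detectable.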
